A study of Mus musculus with 13 samples.

Results

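Angiopoietin-like genes encode secreted glycoproteins that carry a coiled-coil region and, in most members, a fibrinogen-like domain. Of this family, Angptl1, Angptl2, Angptl4 and Angptl7 were followed in resting mouse skin, each through the probe set of that gene alone with the highest mean over all arrays. They were chosen by the measured daily rhythm of Angptl7 on these arrays, and the others as its relatives. Of the 4 genes named, 3 had such a probe set, out of 19938 genes with one on the array. Angptl2 had no probe set of its own in the annotation used and is not analysed here. Angptl1, Angptl4 and Angptl7 had 1 such probe set each, and all 3 passed the filter on dim genes, which kept 14953 genes.

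The samples were whole back skin of male C57Bl6 mice at postnatal day 46, when hair follicles rest (telogen). The labels name no mutation and no treatment, and all mice were fed standard chow without restriction in a day of 12 h light and 12 h dark. Lights came on at ZT0 and went off at ZT12 (ZT, zeitgeber time, in hours from lights on). Skin was taken every 4 h over 48 h, and each of the 13 arrays carried equal amounts of RNA from 3 mice, so the groups were ZT2 with 3 arrays and ZT6, ZT10, ZT14, ZT18 and ZT22 with 2 arrays each. Every array is a separate pool from a separate hour, and the spread between arrays is that between pools and not between animals. Values are linear probe set intensities, which cannot be set against each other between genes, and tests were run on log2(intensity + 16), a scale that understates the change of a dim gene. In whole skin, fewer cells of a type and less RNA per cell cannot be told apart.

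As background, ANGPTL proteins resemble the angiopoietins of blood vessels but do not bind their receptor TIE2, and most act on lipid metabolism, vessels or the extracellular matrix. ANGPTL4 inhibits lipoprotein lipase, the enzyme that releases fatty acids from circulating triglycerides, and its gene is induced in fasting, by PPAR nuclear receptors and by glucocorticoids. ANGPTL8, a small relative without the fibrinogen-like domain, is induced by feeding and also acts on the regulation of that enzyme. ANGPTL7 is a matrix-associated protein known mainly from the cornea and the outflow tissue of the eye. ANGPTL1 is known as an inhibitor of vessel growth.

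The 250 bases before the start of Angptl7, whose level varied most by hour, and of Angptl1 are shown because the genes differ in the hour of their maximum. The sequences are RefSeq's, from GRCm38.p6, at chr4:148500463-148500712 on the minus strand and chr1:156838773-156839022 on the plus strand, and each is read 5′ to 3′ towards the gene. Of the 4 genes, 3 had an entry in the promoter table used here. Capitals mark a match to a searched motif.
Angptl7: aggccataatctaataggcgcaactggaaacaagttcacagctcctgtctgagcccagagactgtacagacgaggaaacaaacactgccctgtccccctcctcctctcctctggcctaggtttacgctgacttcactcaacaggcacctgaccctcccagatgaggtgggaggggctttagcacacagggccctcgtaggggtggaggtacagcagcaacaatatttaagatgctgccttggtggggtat
Angptl1: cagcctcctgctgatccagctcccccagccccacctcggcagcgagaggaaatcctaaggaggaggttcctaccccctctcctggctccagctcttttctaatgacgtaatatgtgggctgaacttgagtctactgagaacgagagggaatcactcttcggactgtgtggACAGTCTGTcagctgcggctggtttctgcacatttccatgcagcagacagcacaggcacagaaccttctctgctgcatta
Both strands were searched for the E-box CACGTG and its variant CACGTT, the D-box as TTATGTAA or TTACGTAA, the nuclear receptor half-site AGGTCA, which REV-ERB, ROR and PPAR sites contain, the glucocorticoid element ACANNNTGT and the cyclic AMP element TGACGTCA. CACGTG and CACGTT share their first letters, and a match of ACANNNTGT may overlap either. None of these letters is in the Angptl7 window. The Angptl1 window holds ACAGTCTGT, 80 to 72 bases before the start, a match to ACANNNTGT that 5.82% of 32536 windows of this length also have. For comparison, CACGTG was found in 6.04% of the windows, CACGTT in 3.87%, AGGTCA in 14.0%, TGACGTCA in 1.56%, TTATGTAA in 0.811% and TTACGTAA in 0.114%.

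Angptl7 was highest just after lights off on both days. In order of collection its intensity was 621, 993, 2313, 3186, 639 and 791 on the first day (hours 2 to 22) and 355, 1059, 2820, 3530, 1087 and 675 on the second (hours 26 to 46), with 456 at hour 50. The 4 arrays of ZT10 and ZT14 lay between 2313 and 3530, and the other 9 between 355 and 1087, with no overlap. By time of day the mean was 477 ± 134 (SD, n = 3) at ZT2, 1026 ± 47.0 at ZT6, 2567 ± 358 at ZT10, 3358 ± 243 at ZT14, 863 ± 317 at ZT18 and 733 ± 81.7 at ZT22 (SD, n = 2 each). In the order of levels, the ranges of ZT2 and ZT22, of ZT6 and ZT10 and of ZT10 and ZT14 did not overlap, while those of ZT22 and ZT18 and of ZT18 and ZT6 did. The mean at ZT14 was 7.04 times that at ZT2.

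**Figure D1:**
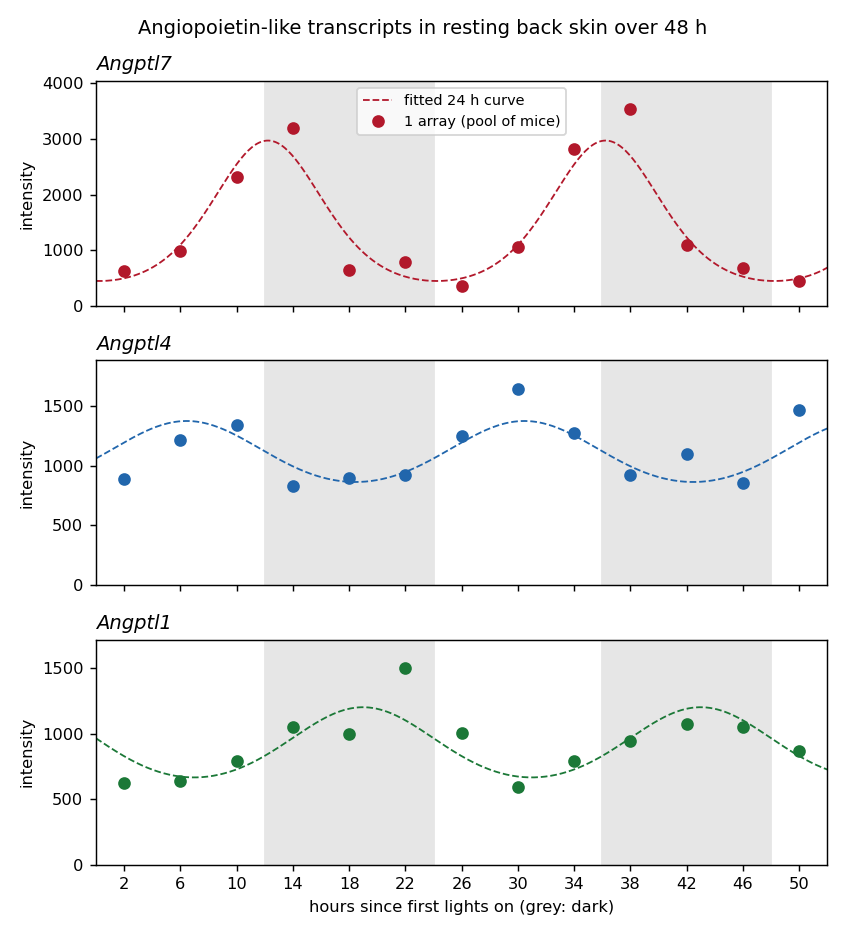
Intensity (linear scale) of Angptl7, Angptl4 and Angptl1 on each of 13 arrays against the hour of collection, with points for single arrays, dashed lines for the fitted 24 h curve and grey bands for the dark phase. Angptl7 lies between 2313 and 3530 at ZT10 and ZT14 on both days, 6 of 7 light arrays of Angptl4 lie above all its dark arrays and 6 of 7 light arrays of Angptl1 lie below all its dark arrays.

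The fitted 24 h curve of Angptl7 spanned 2.68 ± 0.30 in log2 from trough to peak (SE, n = 13 arrays), with its peak at 12.2 ± 0.44 h, and it described 86.1% of the variance between arrays. Because the gene was picked for this curve, the values are a description without a test, as is dark minus light, which was 0.41 ± 0.54 in log2 (SE, 6 dark and 7 light arrays). The arrays lay on average 0.55 below the curve in log2 at ZT18 and 0.46 above it at ZT22, with 2 arrays each. Between arrays of the same time of day the SD was 0.31 in log2. The fall from ZT14 to ZT18 was larger than the rise from ZT10 to ZT14. On the second day the level at ZT14 was 1.25 times that at ZT10, and 3.25 times that at ZT18. On the first day these ratios were 1.38 and 4.99. The earlier steps of the climb were steeper. From ZT2 to ZT6 and from ZT6 to ZT10 the level rose by factors of 2.99 and 2.66 on the second day. On the first day these factors were 1.60 and 2.33. Fitted to each day alone, with 6 arrays, the peak was at 12.5 h on the second day and 11.7 h on the first, and the fold was 8.50 on the second day and 4.70 on the first.

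The choice of Angptl7 did not directly use whether its level or its curve changed between days. A strong 24 h curve over both days does favour genes whose days agree and whose residual is small. The tests of the day, of the curve by day and of the 12 h component are therefore not independent of the choice. The difference of the second day minus the first, at matched hours, was 0.05 ± 0.16 in log2 (SE, 12 arrays), with an adjusted p of 0.897 in limma with Benjamini-Hochberg adjustment, and 4 of 6 hours were higher on the second day. The difference between the days' curves had an adjusted p of 0.599 (limma), with a size of 1.01 ± 0.68 in log2 (SE) from peak to trough. A 12 h component added to the 24 h curve had a size of 0.66 ± 0.27 (SE) and an adjusted p of 0.863 (limma). Across all genes 0% were called in each of these 3 tests by limma, while 976 genes (6.53%) for the day, 1919 (12.8%) for the curve by day and 817 (5.46%) for the 12 h component had an unadjusted p under 0.05.

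The genes whose pattern over the 13 arrays was most like that of Angptl7 included several of the circadian clock. By Pearson correlation of log2 values these were Sh3d21 (0.94), Tspan4 (0.94), Tsc22d3 (0.94), Per2 (0.94), Lonrf1 (0.93), Hlf (0.93), Per3 (0.92) and Vav2 (0.91), all from the same arrays and given without a test. Per2 and Per3 encode period proteins, the repressors of the clock loop, Hlf a clock-driven transcription factor and Tsc22d3 the glucocorticoid-induced leucine zipper protein. They differed in size, with a fitted fold of 9.71 for Per2, 7.29 for Per3, 6.42 for Angptl7, 2.57 for Hlf, 2.53 for Tspan4, 2.13 for Tsc22d3, 1.71 for Sh3d21, 1.65 for Lonrf1 and 1.22 for Vav2. Their fitted peaks lay between 10.8 h (Per3) and 13.1 h (Per2). The ratio of the mean at ZT14 to that at ZT18 was 3.89 for Angptl7, 3.18 for Per3 and 2.75 for Per2, and between 1.09 and 1.71 for the other 6.

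**Figure D2:**
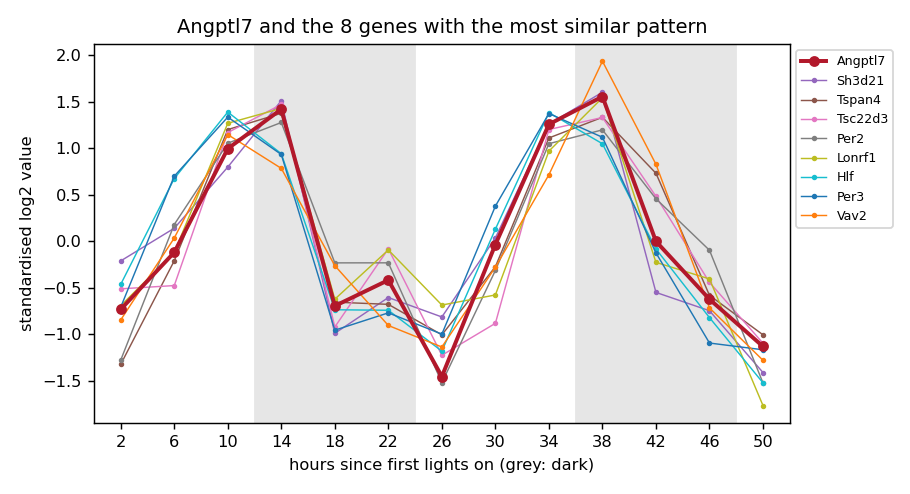
Log2 values of Angptl7 (thick red line) and of the 8 genes with the highest correlation to it, each centred on its own mean and divided by its own SD, against the hour of collection, with grey bands for the dark phase. All 9 genes are high at hours 10 and 14 and again at 34 and 38, and below their own mean at hours 18 and 46.

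Angptl4 had most of its higher values in the light, the rest phase of mice, and its highest array was at ZT6. In order of collection its intensity was 889, 1214, 1339, 828, 899 and 924 on the first day, then 1244, 1642, 1275, 919, 1096 and 855 on the second, and 1466 at hour 50. Of the 7 light arrays, 6 were above all 6 dark arrays, the exception being the first ZT2 array. By time of day the mean was 1200 ± 291 at ZT2 (SD, n = 3), and 1428 ± 302 at ZT6, 1307 ± 45.6 at ZT10, 874 ± 64.1 at ZT14, 998 ± 139 at ZT18 and 889 ± 48.9 at ZT22 (SD, n = 2 each). In the order of levels each time of day overlapped the next. The ratio of ZT10 to ZT14 was 1.39 on the second day and 1.62 on the first.

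The 24 h curve of Angptl4 spanned 0.66 ± 0.18 in log2 from trough to peak (SE, n = 13 arrays), a fold of 1.58 with its peak at 6.45 ± 0.97 h, and described 53.1% of the variance. It did not pass, with an adjusted p of 0.136 in limma's F test, which ranged from 0.0475 to 0.314 over 24 alternatives. Across all genes, 2.13% passed this test. Dark minus light was -0.47 ± 0.11 in log2 (SE, 6 dark and 7 light arrays), and its adjusted p was 0.302 (limma), against 0.0201% of all genes called. Without the first ZT2 array both tests passed for Angptl4, with adjusted p-values of 0.0475 and 0.0318 (limma). That array also had the lowest summed intensity of 10 adipocyte markers (40485, against 43872 to 52627 on the others), of 12 dermal fibroblast markers (65300, against 81272 to 93872) and of 8 tendon and fascia markers (5368, against 6692 to 8928). In all it was the lowest of the 13 arrays in 7 of 14 marker lists, macrophages (6900, against 8946 to 11506), nerve sheath, sebocytes and hair shaft included, and the highest in 2, endothelium (12539) and differentiated keratinocytes (66538). The part of these in the result was not tested. The second day exceeded the first by 0.19 ± 0.09 (SE, adjusted p = 0.603, limma), with 4 of 6 hours higher.

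The genes most like Angptl4 over the 13 arrays were Serpinb6e (Pearson r = 0.91), Slc14a1 (0.87), Arhgap6 (0.86) and Gm10602 (0.86), with fitted peaks between 5.31 and 7.95 h. Slc14a1 encodes a urea transporter.

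Among the other family members, Angptl8 was highest at ZT14, the time of day with the lowest mean of Angptl4. Its intensity was 1173 and 1229 on the ZT14 arrays, and between 246 and 617 on the other 11, with no overlap. The mean was 397 ± 123 at ZT2 (SD, n = 3), and 296 ± 71.5 at ZT6, 347 ± 114 at ZT10, 1201 ± 39.4 at ZT14, 467 ± 142 at ZT18 and 524 ± 131 at ZT22 (SD, n = 2 each). In the order of levels all neighbours overlapped except ZT22 and ZT14. Such a single high time of day is not the shape of a cosine, and the 24 h curve did not pass, with a span of 1.22 ± 0.40 in log2 (SE) and an adjusted p of 0.225 (limma). The 12 h component was 1.0 ± 0.31 (SE) with an adjusted p of 0.863 (limma). The ZT14 arrays were remarked after their values were seen, so no test is given for them. Across the 13 arrays the log2 values of Angptl4 and Angptl8 had a Pearson r of -0.71, given as a description. Angptl6 stayed between 223 and 287 on all arrays, with a fitted span of 0.02 ± 0.08 in log2 (SE, adjusted p = 0.974, limma). These values lay below all array medians, which ran from 353.8 to 392.8. At so low a level a steady signal cannot be told from no expression. The means of Angptl8 at ZT6 and ZT10, 296 and 347, also lay below the array medians, and its other means lay above them.

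**Figure D3:**
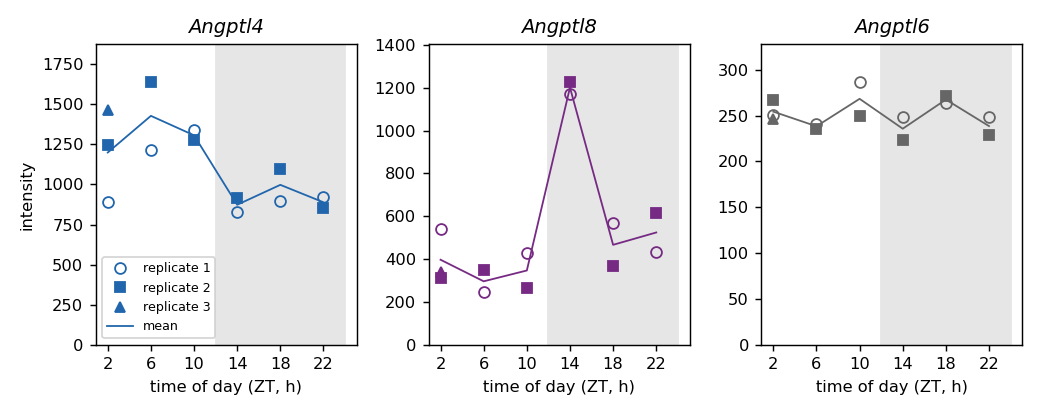
Intensity (linear scale, a separate axis for each gene) of Angptl4, Angptl8 and Angptl6 against time of day, with a symbol for each array by replicate, a line through the means and grey for the dark phase. Angptl4 is lowest at ZT14, where both Angptl8 arrays, at 1173 and 1229, stand above the other 11.

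Angptl4 and Angptl8 are also made in liver, and transcripts typical of liver were present on these arrays at levels that differed between pools. The summed intensity of 6 liver markers was 35330 to 53417 at ZT2, 21797 to 43340 at ZT6, 14677 to 64465 at ZT10, 43248 to 60270 at ZT14, 42411 to 44098 at ZT18 and 8766 to 19115 at ZT22. The mean sum was highest at ZT14, at 51759, as was Angptl8, and was 43484 at ZT2, 43254 at ZT18, 39571 at ZT10, 32568 at ZT6 and 13940 at ZT22. The highest single array was the first of ZT10, with a liver sum of 64465 and Angptl8 at 427. With the log2 liver sum as a covariate, an alternative added after seeing the data, the peak-to-trough difference was 0.65 for Angptl4, 0.82 for Angptl1, 2.79 for Angptl7 and 1.19 for Angptl8, whose adjusted p was 0.179 (limma). The part of liver RNA in the ZT14 level of Angptl8 alone was not tested.

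Angptl1 had its higher values in the dark. In order of collection its intensity was 626, 640, 793, 1055, 998 and 1504 on the first day, then 1009, 593, 791, 950, 1079 and 1053 on the second, and 873 at hour 50. Of the 7 light arrays, 6 lay below all 6 dark arrays, the exception being the second ZT2 array. The mean was 836 ± 194 at ZT2 (SD, n = 3), and 616 ± 33.4 at ZT6, 792 ± 1.20 at ZT10, 1002 ± 74.7 at ZT14, 1039 ± 57.1 at ZT18 and 1279 ± 319 at ZT22 (SD, n = 2 each). In the order of levels, ZT6 lay below ZT10 without overlap and the other neighbours overlapped.

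The 24 h curve of Angptl1 spanned 0.84 ± 0.18 in log2 from trough to peak (SE, n = 13 arrays), a fold of 1.78 with its peak at 19.0 ± 0.77 h, and described 63.7% of the variance. With an adjusted p of 0.0604 in limma's F test it lay just outside the threshold of 0.05. It passed after quantile normalization (adjusted p = 0.0353, limma), with the arrays shifted to the same median (0.0447) and without the first ZT2 array (0.0331), the array that stands apart in its marker sums. The other 21 of 24 alternatives gave no pass, and over all 24 the adjusted p ranged from 0.0331 to 0.168 (limma). Dark minus light was 0.54 ± 0.13 (SE) over the 6 dark and 7 light arrays and did not pass (adjusted p = 0.302, limma). The second day minus the first was 0.0029 ± 0.13 (SE, adjusted p = 0.992, limma). Most like Angptl1 were Adamts1 (Pearson r = 0.91), which encodes a matrix protease, Hexa (0.89), which encodes a lysosomal hexosaminidase subunit, Lonrf3 (0.88) and Secisbp2 (0.88), with fitted peaks between 18.4 and 19.6 h.

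The measured members thus had fitted peaks at 3 separate hours. Angptl4 and Angptl1 were the measured pair without Angptl7, the gene whose rhythm led to the choice. Members were chosen with earlier results of these data known, so this pair may not be free of selection. The log2 difference of Angptl4 minus Angptl1 followed a 24 h curve of 1.49 from peak to trough, highest at 6.75 h. The curve described 76.9% of its variance, with an unadjusted permutation p of 0.00092 (100000 permutations of the hours, n = 13 arrays). This p ranged from 0.00048 to 0.00517 over 22 alternatives. A rhythm in either gene alone would also make the difference rhythmic, so the test cannot show that their peaks lie at different hours. Neither gene passed its own 24 h test. Angptl7 had a Pearson r of -0.11 with Angptl4 and -0.06 with Angptl1 over the 13 arrays, and Angptl4 one of -0.51 with Angptl1, given as descriptions. Neither Angptl4 (0.834) nor Angptl1 (0.832) had a curve that passed for a difference between days, these being adjusted p-values from limma, and their 12 h components had adjusted p-values of 0.886 and 0.863.

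**Figure D4:**
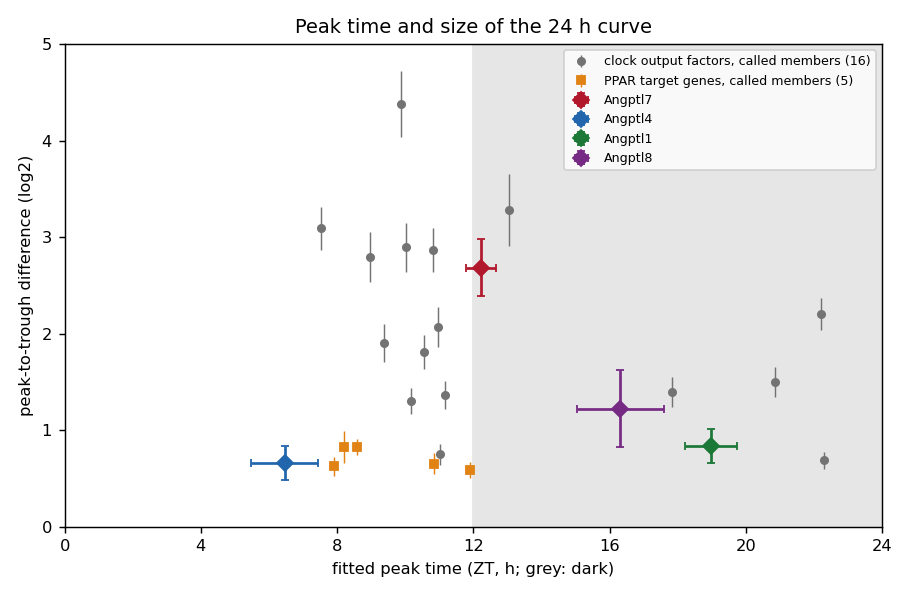
Fitted peak time (hours of ZT, grey for dark) against the peak-to-trough difference in log2 for 4 angiopoietin-like genes (diamonds, bars are SE of both), for 16 called clock genes (grey circles, SE of size) and for 5 called PPAR target genes (orange squares, SE of size). Angptl7 lies at 12.2 h and 2.68, between the peak hours of the clock genes Hlf (11.2 h) and Per2 (13.1 h). Angptl4, Angptl8 and Angptl1 lie lower at 6.45, 16.3 and 19.0 h.

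Several Angptl genes lie inside larger genes. In the RefSeq table Angptl7 lies within the span of Mtor, which encodes the growth kinase mTOR, Angptl1 within Ralgps2 and Angptl8 within Dock6. Mtor stayed between 1104 and 1323 on all arrays, with a fitted span of 0.07 ± 0.07 in log2 (SE, adjusted p = 0.722, limma). Ralgps2 had one of 0.22 ± 0.13 (SE, adjusted p = 0.492) and Dock6 one of 0.15 ± 0.09 (SE, adjusted p = 0.506). In their hours, Dock6 had its highest mean at ZT14, as did Angptl8. It stood at 3555 and 3514 on those arrays and at 2682 to 3572 over all 13. These values are of the brightest of 15 Dock6 probe sets. With the median over its probe sets the fitted peak was at 10.1 h, with a span of 0.09 ± 0.12 in log2 (SE). Ralgps2 had its highest mean at ZT22, as did Angptl1, and its highest array was also the first of ZT22, at 925, with 925 on the first ZT2 array too, where Angptl1 had 626. Mtor had its highest mean at ZT2, where the mean of Angptl7 was lowest.

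The other genes of the pathways around the family are read against the 2.13% of all genes that passed the 24 h test, at which short lists hold few calls or none. The angiopoietins and TIE receptors had 0 of 6 genes called in the 24 h test by limma, with 1 at an unadjusted p under 0.05, where 18.6% of all genes were, and a median fitted fold of 1.18, where the median of all genes was 1.14. In the lipoprotein lipase axis, 0 of 15 genes passed (limma) and 1 was under 0.05 unadjusted, with a median fold of 1.09. Lpl itself, the enzyme that ANGPTL4 inhibits, lay between 2988 and 5068, with a fold of 1.11 (adjusted p = 0.675, limma), and Gpihbp1, which carries the enzyme to the capillary wall, had a fold of 1.29 (adjusted p = 0.232, limma). Receptors and partners of ANGPTL2 included 0 of 9 genes called (limma) and 1 under 0.05 unadjusted, and 1 was called without the first ZT2 or the second ZT22 array. Of the factors known to drive Angptl4, 0 of 12 were called by limma and 5 had an unadjusted p under 0.05, with a median fold of 1.15.

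PPAR target genes had 5 of 25 called, all with a peak in the light phase, and a median fold of 1.26, beside 1.26% of all genes called with a peak in the light. Cpt1a, the gatekeeper of fatty acid entry into mitochondria, was highest at 8.58 h (fold 1.78, adjusted p = 0.000794, limma). Of the genes of lipid droplet proteins, Cidec had its peak at 11.9 h (fold 1.51) and Plin4 at 10.8 h (fold 1.57). Txnip, which encodes the thioredoxin-interacting protein, was highest at 7.91 h (fold 1.54). Pdk4, an inhibitor of glucose oxidation, had a fitted fold of 2.75 with a peak at 8.09 h and did not pass (adjusted p = 0.170, limma). Without the second ZT22 array 4 of the 25 were called, and without the first ZT2 array 5.

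Glucocorticoid induced genes had 8 of 22 called, 5 with a dark peak and 3 with a light peak, and a median fold of 1.51, beside 0.863% and 1.26% of all genes. Per1, also a clock gene, was highest at 10.5 h (fold 3.51) and the transcription factor gene Klf9 at 9.49 h (fold 1.74). Glul, which encodes glutamine synthetase, was highest at 13.3 h (fold 1.78) and Timp4, a metalloprotease inhibitor, at 18.8 h (fold 1.50). Clock genes and clock output factors had 16 of 17 called, 5 with a dark and 11 with a light peak, and a median fold of 3.74. The repressor gene Nr1d1 was highest at 7.54 h, the output factor gene Dbp at 9.88 h, Per3 at 10.8 h and the activator gene Arntl at 22.2 h. Among secreted proteins with a fibrinogen-like domain, 1 of 12 tested genes was called. It was the matrix protein gene Tnc, highest at 5.35 h (fold 1.57, adjusted p = 0.0166, limma). The median fold was 1.32. This list holds Fga, Fgb, Fgg and Fgl1, with folds between 1.49 and 1.91 and SEs between 0.77 and 0.93 in log2. None of these passed, and Fgb is also one of the liver markers.

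Markers of cell types, liver included, were summed by list, and not every marker was clearly expressed. The dimmest measured member averaged 159 for tendon and fascia, 247 for macrophages and dendritic cells, 251 for hair shaft and 253 for red blood cells. These averages lay below all array medians, where a signal cannot be told from no expression. Of 14 marker lists, 12 had no member called in the 24 h test by limma, which called 2.13% of all genes, while adipocytes had 1 of 10, Cidec, and differentiated keratinocytes 1 of 7, Ivl. The summed intensity over the arrays ran from 47601 to 52256 for basal keratinocytes, from 40485 to 52627 for adipocytes, from 65300 to 93872 for dermal fibroblasts, from 9613 to 12539 for endothelium and from 75934 to 114017 for skeletal muscle, which lies under the skin. The hair shaft markers stood at 3455 to 6100 on 12 arrays and at 50641 on the second ZT22 array, on which Angptl7 had 675, Angptl4 855 and Angptl1 1053. Array medians ran from 353.8 to 392.8, and the number of arrays limits the precision.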

How the data were processed

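Skin RNA was measured on whole-transcript arrays. The authors deposited linear intensities of probe sets, and the submitters' processing notes name Affymetrix Expression Console 1.1.1 and PLIER 2.0. How arrays were normalized, and the genome build, is not given in the sources used here. Members and lists were chosen with earlier results of these data known.

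The platform annotation gave 1 gene for 21789 of 35557 probe sets and several for 1621, and did not list 12147. Identifiers of 21698 matched RefSeq, which updated the symbols. For 999 genes with several probe sets the one with the highest mean was kept, and the dimmest 25% of genes were left out. Intensities became log2(intensity + 16). Curves, dark minus light (ZT14, ZT18 and ZT22 against ZT2, ZT6 and ZT10), day differences (12 arrays) and the 12 h component were tested with limma 3.58.1 (R 4.3.3) over 14953 genes with Benjamini-Hochberg adjustment and a threshold of 0.05. The tests were tested on simulated data. Peak-to-trough SE came from the delta method.

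Genes named were the members, the other family and host genes, up to 4 called genes with the smallest p per pathway list, and the 8 or 4 genes of highest correlation. Lpl, Gpihbp1, Pdk4, Ivl, Fga, Fgb, Fgg and Fgl1 are outside this rule, being picked once values were known. Alternatives covered the offset, the filter, normalization, probe sets, covariates, a block for day and leaving out each array.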

Additional observations from a re-analysis of the deposited data

Results flagged for a closer look

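Angptl1 had 1504 on the first ZT22 array, where the next highest of the 6 dark arrays had 1079. The gap was 0.723 of the range of the dark arrays on the log2 scale, above Dixon's critical value of 0.625. It was 1 of 10 sets of dark or light arrays examined for 5 family members. Chance flags about 1 in 20 where the values of a set share the same level. The dark arrays span ZT14, ZT18 and ZT22, and ZT22 had the highest mean of Angptl1, so that rate need not hold here. Without this array the peak-to-trough difference of Angptl1 was 0.70 and its adjusted p 0.0650 (limma).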

How the results depend on the processing

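Over 24 alternatives, Angptl7 kept a peak between 12.0 and 12.8 h and a peak-to-trough difference of 2.54 to 2.86 in log2. Angptl1 kept a peak between 18.4 and 19.6 h and Angptl4 one between 5.78 and 7.05 h. The 24 h curve of Angptl1 passed with 0.88 after quantile normalization and 0.87 with the arrays shifted to the same median, and leaving out 1 array gave 0.70 to 0.94, with a pass without the first ZT2 array. For Angptl4 leaving out 1 array gave 0.55 to 0.81, and -0.56 to -0.41 for dark minus light, both with a pass only without the first ZT2 array. The cause was not tested.

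Genes called for the 24 h curve numbered 318. They were 165 with the dim end of the arrays as a covariate and 203 on the 12 arrays of hours 2 to 46, and 128 to 422 without 1 array. The fit on hours 2 to 46 is the same as that without the third ZT2 array, and the alternatives count it under both names. The lowest were 128 and 131 without the first and second ZT14 array and 133 without the first ZT10 array, then 183 and 193 without the second and first ZT6 array, 195 without the second ZT2 array and 203 without the third and 202 without the second ZT10 array. Dark minus light had 3 calls, 1 with the dimmest 50% of genes left out, and 1 to 26 without 1 array (26 without the first ZT22, 6 without the first ZT2 and 1 without the second ZT18 array). The 12 h component had 0 calls by limma, and 0 to 191 without 1 array (191 without the first ZT10 array). With day as a block (replicate block), the peak-to-trough difference was 0.84 for Angptl1 and 0.63 for Angptl4, and no call of Angptl1 or Angptl4 changed, while 212 genes were called. The planned tests of Angptl2 and of pairs with it were not run. Filters do not bear on the difference of Angptl4 and Angptl1.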
